A study of Mus musculus with 40 samples.

Results

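Described here are 40 genes of the cell cycle and of cell proliferation, 40 of the 55421 genes in a table of 3′ RNA counts. They were chosen by name, as rows whose gene symbol stands on a list of replication and mitosis genes. All 40 were found and all 40 passed the filter on low counts in every comparison. The cells were CD4+ T cells sorted from perfused wild-type (WT) mice. Regulatory T cells (Treg), which restrain immune responses, carried the Foxp3-Thy1.1 reporter, a surface tag tied to the gene Foxp3, and conventional CD4+ T cells (Tconv) lacked it. Each library was made from 2000 cells, and each of 10 sources gave 3 Treg libraries and 1 Tconv library, 40 in all. Below, blood, spleen and lymph node are called the lymphoid sources. The tissues are liver, kidney, lung, pancreas and the small intestinal IEL (the intraepithelial compartment) and LPL (the lamina propria), while Peyer's patch stands on neither side. Ages are not given in the sources used here, nor is it said which libraries share an animal or whether animals were pooled. P-values therefore measure only the spread between these libraries, which may be technical.

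A dividing cell passes through a fixed order of steps. In G1 the MCM helicase is loaded onto origins of replication, cyclin E and the E2F factors open S phase, ribonucleotide reductase and thymidylate synthase supply the nucleotides, and in G2 cyclin A, cyclin B and CDK1 rise and drive the cell into mitosis, where the spindle assembles and the anaphase-promoting complex (APC/C) ends the division. Most T cells rest outside the cycle, so in a sorted population the RNA of the S, G2 and M genes mainly comes from the cells that divide, while MCM and Pcna RNA is also present at a lower level in resting cells. Treg in particular are known to hold a dividing fraction in the steady state.

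Many replication genes and many mitotic genes carry different short DNA motifs ahead of their start sites, and these are shown as background to the role groups below. Promoter windows of 300 bases (250 before and 50 after the start, RefSeq, GRCm38.p6) were found for 31 of the 40 members. E2F sites, the motif of S phase genes, were searched as TTTGGCGC, TTTCCCGC, TTTGCCGC or TTTCGCGC. The cell cycle homology region (CHR), the motif of G2 and M genes, was searched as TTTGAA or TTTAAA, and the CCAAT box, bound by NF-Y, as CCAAT. All were searched on both strands. The stretches below are the 160 bases before the start site, in the direction of transcription: chr1:128359706-128359865 on the minus strand for Mcm6, chr8:75109349-75109508 on the plus strand for Mcm5, chr10:69352913-69353072 on the minus strand for Cdk1, chr13:100786487-100786646 on the minus strand for Ccnb1, chr4:118437344-118437503 on the minus strand for Cdc20, chr2:164769769-164769928 on the plus strand for Ube2c and chr11:99024190-99024349 on the minus strand for Top2a. Capitals mark every E2F, CHR and CCAAT match on either strand; matches on the 2 strands can overlap and then form 1 stretch of capitals.
Mcm6: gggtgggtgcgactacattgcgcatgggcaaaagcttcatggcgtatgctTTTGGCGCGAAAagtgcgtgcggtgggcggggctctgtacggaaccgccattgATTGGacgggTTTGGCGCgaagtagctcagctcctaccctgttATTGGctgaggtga
Mcm5: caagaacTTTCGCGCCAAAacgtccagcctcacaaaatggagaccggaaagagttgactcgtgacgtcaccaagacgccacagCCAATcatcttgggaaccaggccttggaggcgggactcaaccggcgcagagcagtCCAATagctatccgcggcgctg
Cdk1: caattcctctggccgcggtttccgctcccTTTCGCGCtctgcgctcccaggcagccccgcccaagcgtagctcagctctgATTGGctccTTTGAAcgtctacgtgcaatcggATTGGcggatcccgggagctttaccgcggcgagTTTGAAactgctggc
Ccnb1: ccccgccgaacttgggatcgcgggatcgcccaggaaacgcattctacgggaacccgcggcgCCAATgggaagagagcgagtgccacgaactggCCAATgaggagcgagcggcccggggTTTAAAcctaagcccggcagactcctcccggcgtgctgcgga
Cdc20: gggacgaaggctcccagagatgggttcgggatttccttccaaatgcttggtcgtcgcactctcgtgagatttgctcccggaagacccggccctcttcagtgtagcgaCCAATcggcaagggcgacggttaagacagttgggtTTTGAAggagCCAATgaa
Ube2c: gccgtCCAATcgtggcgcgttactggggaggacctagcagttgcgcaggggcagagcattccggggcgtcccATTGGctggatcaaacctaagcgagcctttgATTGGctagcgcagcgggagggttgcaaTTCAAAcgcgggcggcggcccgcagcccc
Top2a: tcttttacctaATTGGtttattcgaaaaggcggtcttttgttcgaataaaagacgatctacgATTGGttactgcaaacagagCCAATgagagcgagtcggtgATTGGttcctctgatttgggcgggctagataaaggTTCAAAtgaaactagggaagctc
An E2F match was present in the windows of 5 of 8 replication members, of 1 of 17 members of the 3 mitotic groups, and of 2.60% of all 27025 genes with a window (4.41% of the 11569 of them that were tested in Treg). CHR matches were in 15 of 17 mitotic members, in 3 of 8 replication members and in 30.6% of all genes (23.5% of those tested). CCAAT boxes were in 15 of 17 mitotic members, in 7 of 8 replication members and in 41.1% of all genes (42.0% of those tested). Over all 31 members with a window, E2F matches were in 6, CHR matches in 21 and CCAAT boxes in 24. The nucleotide supply and G1/S members with a window thus lacked an E2F match, and some of them had a CHR match. In the stretches shown, Mcm6 has 2 separate E2F stretches and Mcm5 has 1, each beside 2 CCAAT boxes and 0 CHR matches, while Cdk1 has 1 E2F, 2 CHR and 2 CCAAT matches. Ccnb1 and Cdc20 have 1 CHR and 2 CCAAT matches each, Ube2c has 1 and 3, and Top2a has 1 and 4, with 0 E2F matches in these 4. A match is a string of letters and was not tested for binding in these cells.

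Total counts ran from 12197980 to 28823493 per library, and the 40 members together took 0.0808% to 0.257% of them. Levels are CPM, counts scaled to library totals, with the totals adjusted by TMM, a normalisation between libraries. Foxp3, the factor that defines Treg, was at 66.6 CPM or more in every Treg library and at 6.54 CPM or less in every Tconv library. In 7 libraries longer genes, by the deposited gene length in bases, were low relative to the others. In these the rank correlation of gene length with the deviation from the mean over libraries was below -0.2, and the next library stood at -0.094. The 7 libraries were liver Treg 4, lung Treg 5 and 6, lung Tconv 5, lymph node Treg 7 and 10 and lymph node Tconv 8. Members of great gene length include Mki67, Cenpf, Cenpe, Top2a and Rrm1, so counts of called members are also given without these libraries. Rrm1 was not low in all of them, at 91.1 CPM in lymph node Treg 7 and 41.7 CPM in lung Treg 6. Leaving them out leaves lung Treg 1 and lymph node Treg 6 alone in their sources, with their spread taken from the other sources, and no Tconv library from lung or lymph node. Early response genes, which are induced by handling and digestion of tissue, also differed between sources: the summed CPM of 17 such genes (immediate early and stress genes, all 17 detected) was 1040 to 2430 in blood, spleen and lymph node Treg, 1760 to 2050 in liver and 9660 to 26900 in kidney, pancreas, IEL and LPL Treg. In lung Treg the sum was 2110, 2690 and 11900 (lowest, median and highest) and in Peyer's patch Treg 3130, 3280 and 8970. Liver Treg thus stood in the lymphoid range for this list, as did the lowest lung library. Its part in the differences below was not tested.

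Treg from blood held the least RNA of these genes and Treg from LPL and pancreas the most. Because resting cells also hold MCM and Pcna RNA, the other 33 members were summed apart from Mcm2 to Mcm7 and Pcna. Values of 1 source are given in the order of the deposited columns (blood Treg 2, 4 and 5, spleen Treg 2, 3 and 4, lymph node Treg 10, 6 and 7, liver Treg 1, 3 and 4, kidney Treg 1, 3 and 5, lung and pancreas Treg 1, 5 and 6, and 1, 2 and 3 elsewhere). In Treg these 33 genes summed to 230.5, 152 and 135 CPM in the 3 blood libraries, 328, 437 and 297 in spleen, 318, 439.5 and 406 in lymph node and 340.4, 348 and 392 in Peyer's patch. The sum was 329, 601 and 540.3 in liver, 194, 537 and 615 in kidney and 444, 712 and 583 in lung. In pancreas it was 918, 732 and 588, in IEL 477, 614 and 543 and in LPL 1197, 816 and 705. The means fell in the order LPL (906 ± 258, SD, n = 3), pancreas, lung, IEL, liver, kidney, lymph node, Peyer's patch, spleen (354 ± 73.6) and blood (172 ± 50.99). Each source in that order overlapped with the next, except that the 3 blood libraries lay below all 3 spleen libraries. The summed MCM and Pcna level had its highest means in pancreas (1282 CPM ± 38.1) and LPL (1258 ± 107) and its lowest in blood (720.2 ± 55.5) and spleen (700.2 ± 73.0, SD, n = 3 each). In the single Tconv libraries the 33 genes summed to 909 CPM in LPL, 828 in kidney, 798 in IEL and 685 in liver. They summed to 455 in Peyer's patch, 410.5 in lung, 306 in pancreas, 262 in spleen, 188 in blood and 165 in lymph node. In bulk RNA a larger share of dividing cells and more of this RNA per dividing cell cannot be told apart. The spread within a source was wide: kidney Treg 1 held 194 CPM against 537 and 615 in the other two kidney libraries, and that library also had the most RNA of kidney tubule markers (8 of 8 detected, summed CPM of 1860 against 36.6 and 50.6 in the other two kidney Treg libraries). The part of these markers in its low sum was not tested.

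**Figure D1:**
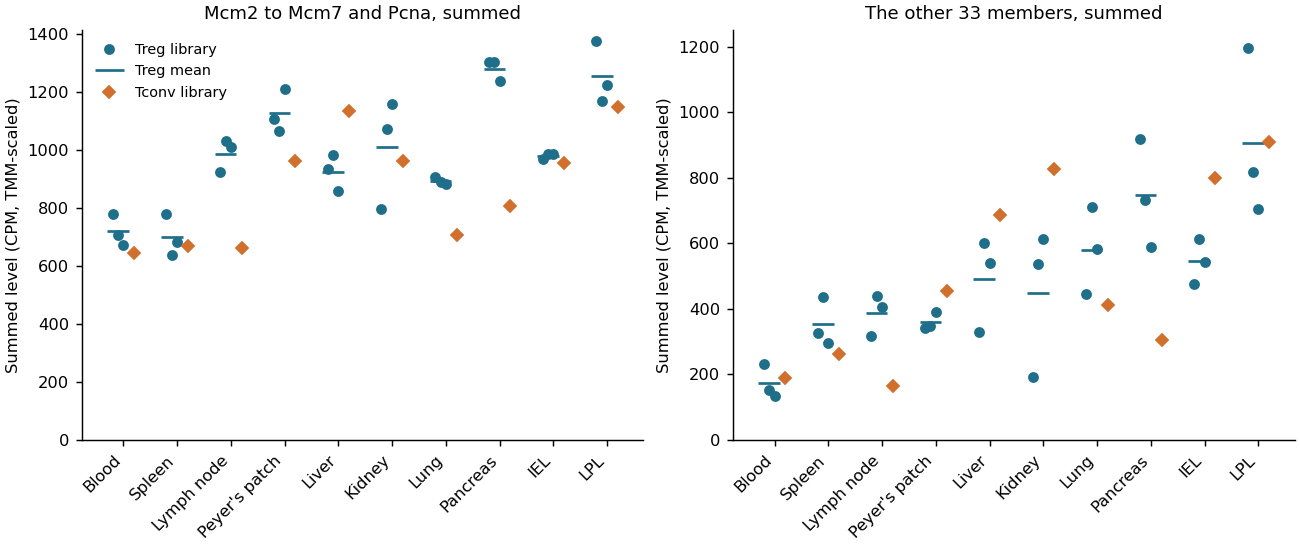
Summed level (CPM) of Mcm2 to Mcm7 with Pcna (left) and of the other 33 members (right) in each library, by source; circles are Treg libraries, lines their mean, diamonds the 1 Tconv library. The 3 blood Treg libraries, at 135 to 230.5 CPM, sit below all 3 spleen Treg libraries on the right, and LPL Treg reach 1197 CPM.

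The joint test of the 10 sources in Treg (edgeR quasi-likelihood F test, adjusted over 17909 genes) called 24 of the 40 members, against 34.5% of all genes tested. Without the libraries low in long genes it called 31, of which 21 were among the 24. It called 7 of 10 replication members, 2 of 4 nucleotide supply members, 2 of 3 G1/S members, 3 of 7 mitotic entry members, 5 of 7 checkpoint and APC/C members and 5 of 9 spindle and chromosome members. Gene by gene, the lowest source mean lay in blood for 31 of the 40 members (17.3% of all genes tested) and the highest in LPL for 24 (14.7%). Lung held the highest mean of 8 members (13.3% of genes), pancreas of 5 (6.60%), and spleen (10.5%), lymph node (13.3%) and kidney (10.2%) of 1 each. The lowest mean lay in spleen for Mcm2, Mcm4 and Mcm6 (10.6% of genes) and in lymph node for Foxm1, Plk1 and Mki67 (13.5%), and for 1 member each in kidney (7.68%), lung (12.8%) and IEL (10.1%). All 3 LPL libraries lay above all 3 blood libraries for 40 of 40 members, against 23.5% of all genes. The 27 other Treg libraries overlapped with LPL for all but 2 members, Ccne1 and Cenpe, and with blood for all but Tyms and Ccna2. Of all genes tested, 1.32% had all LPL libraries above the other 27 and 0.637% had all blood libraries below the other 27.

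**Figure D2:**
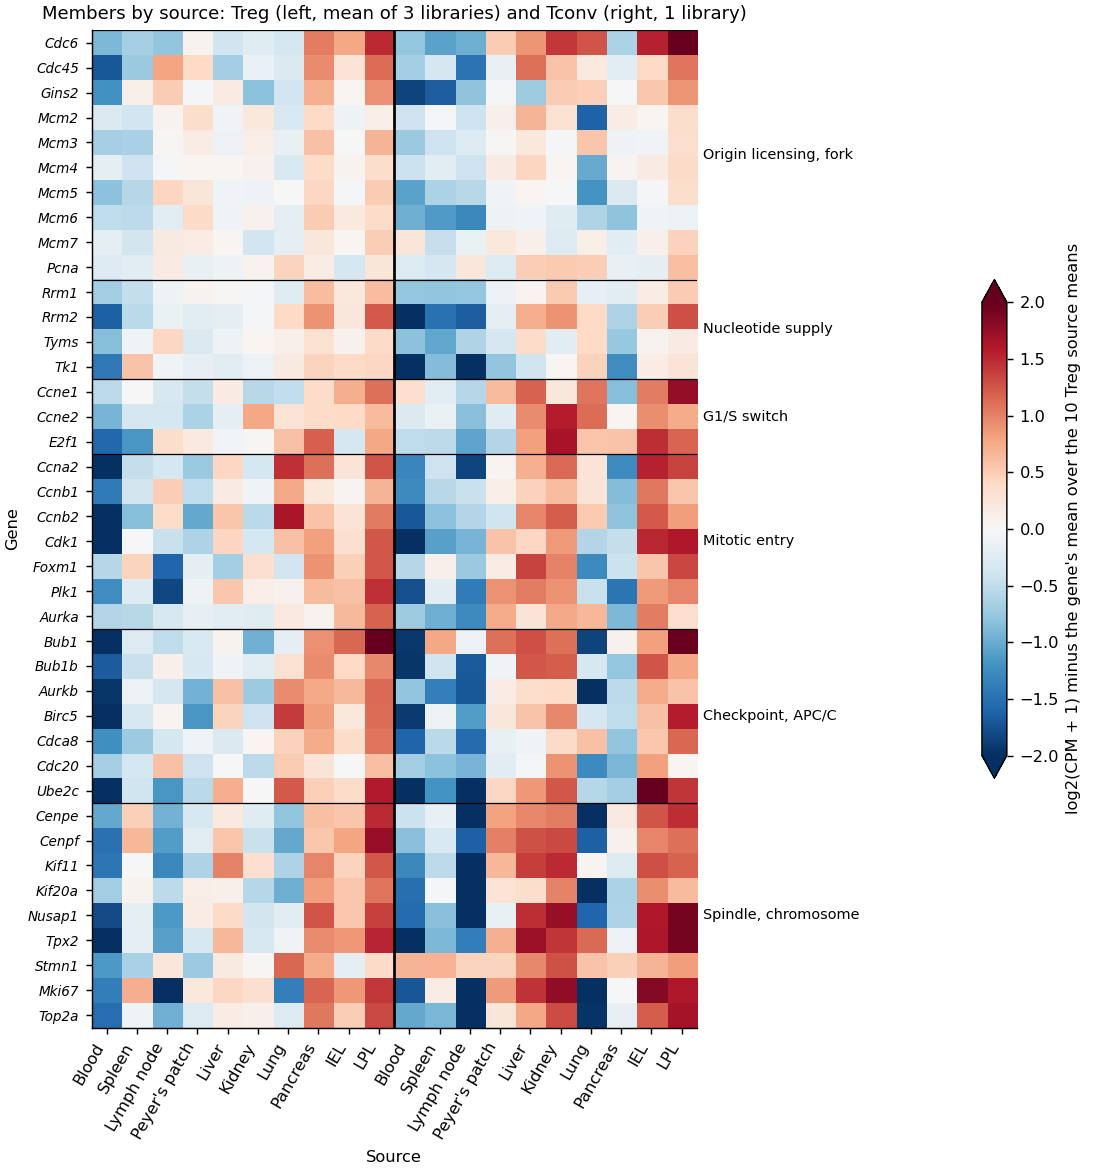
Level of each member (rows, by role) in each source (columns), as log2(CPM + 1) minus the gene's mean over the 10 Treg sources; Treg on the left as means of 3 libraries, Tconv on the right as 1 library each. In Treg many rows are bluest in blood and reddest in LPL. By mean CPM, which is not the drawn scale, blood was lowest for 31 of 40 and LPL highest for 24 of 40.

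In the group of origin licensing and the replication fork, Mcm6 (chr1:128331590-128359664, minus strand), a subunit of the MCM2-7 helicase, was the member of this group with the highest mean and with the smallest p in the joint test (F = 8.87, adjusted p = 0.00015, edgeR). Its Treg levels were 225, 197 and 188 CPM in blood, 238, 182 and 188 in spleen and 252, 289 and 206 in lymph node. They were 399, 334 and 409 in Peyer's patch, 271, 288 and 265 in liver, 220.3, 345 and 387 in kidney and 233, 249 and 283 in lung. In pancreas they were 452, 411 and 372, in IEL 320.0, 336 and 334 and in LPL 417, 342 and 364. Pancreas, Peyer's patch and LPL were thus the high sources and blood and spleen the low ones, and the pancreas libraries lay above every blood, spleen, lymph node, liver, lung and IEL library. The other MCM subunits ran from 91.99 to 194 CPM for Mcm2, 41.1 to 175 for Mcm3, 101 to 226 for Mcm4, 56.8 to 173 for Mcm5 and 61.7 to 135 for Mcm7 over the 30 Treg libraries. Cdc45 and Gins2, which join MCM to form the active helicase, and Cdc6, which loads it, covered wider ratios. Gins2 ran from 0.918 to 12.1 CPM. Cdc45 was at 1.81, 2.41 and 0.522 CPM in blood, 12.3, 12.9 and 12.7 in lymph node and 17.1, 18.2 and 13.6 in LPL Treg. Lymph node and LPL were both above blood for Cdc45, whereas Cdc6, at 3.88, 1.85 and 1.38 CPM in blood and 27.4, 15.9 and 9.11 in LPL, was at 0.363, 7.93 and 2.403 in lymph node and overlapped there with blood. Pcna, the sliding clamp of the polymerase, was the member least correlated with the mean of the other 39 over the 30 Treg libraries (Pearson r = 0.27 on log2(CPM + 1), a description); its lowest source mean was in IEL.

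Among the genes of nucleotide supply, Rrm1 (chr7:102441695-102469771, plus strand), the large subunit of ribonucleotide reductase, was at 49.6, 58.8 and 55 CPM in blood, 67.04, 71.2 and 54.1 in spleen, 69.9, 88.8 and 91.1 in lymph node and 101, 93.03 and 86.02 in Peyer's patch Treg. In liver it was at 92.8, 103 and 76.5, in kidney at 57.4, 101 and 109.7, in lung at 90.8, 110.2 and 41.7, in pancreas at 143, 119 and 149, in IEL at 93.3, 127 and 92.9 and in LPL at 148, 134 and 128. Pancreas and LPL libraries all exceeded every blood, spleen and lymph node library. Rrm2 (chr12:24708241-24714146, plus strand), the small subunit that is made in S phase, separated the sources more widely (joint test F = 6.86, adjusted p = 0.000758, edgeR). Its levels were 20.9, 7.86 and 10.9 CPM in blood, 30.9, 29.4 and 21.8 in spleen, 28.3, 34.3 and 48.9 in lymph node and 41.5, 33.9 and 28.2 in Peyer's patch. They were 27.3, 46.1 and 33.2 in liver, 13.97, 55.4 and 76.7 in kidney, 45.3, 57.1 and 56.2 in lung, 86.96, 87.8 and 55.7 in pancreas, 33.01, 70.9 and 44.4 in IEL and 128, 86.6 and 75.5 in LPL. Blood was below all spleen, lymph node and LPL libraries, and kidney Treg 1 fell within the blood range. Rrm2 was also the member closest to the mean of the other 39 (r = 0.913). Tyms, thymidylate synthase, was at 10.5, 11.7 and 9.12 CPM in blood and at 12.9 CPM or more in every other Treg library. Tk1, thymidine kinase, had its highest mean in spleen, at 12.7, 20.9 and 12.3 CPM, with 5.64, 1.94 and 2.23 in blood and 22.5, 12.7 and 7.97 in LPL; spleen and LPL overlapped.

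Among the genes of the G1/S switch, Ccne1 (chr7:38097984-38107534, minus strand), cyclin E1, was at 7.83, 3.597 and 5.75 CPM in blood, 5.79, 9.69 and 9.82 in spleen, 2.77, 7.81 and 11.3 in lymph node and 4.88, 6.67 and 5.69 in Peyer's patch Treg. It was at 8.74, 10.7 and 8.92 in liver, 1.55, 6.54 and 12.3 in kidney, 4.102, 10.2 and 4.09 in lung, 12.5, 11.8 and 8.99 in pancreas, 14.7, 16.96 and 11.8 in IEL and 19.5, 20.4 and 17.03 in LPL. IEL and LPL had the highest means, and all 3 LPL libraries lay above all other Treg libraries. E2f1 (chr2:154559407-154569892, minus strand), the activator of S phase genes, gave the smallest joint p of its group (F = 5.39, adjusted p = 0.003, edgeR). Levels of E2f1 were 3.502, 2.04 and 0.427 CPM in blood, 3.21, 1.46 and 3.33 in spleen, 8.49, 8.92 and 10.4 in lymph node and 7.78, 8.05 and 8.74 in Peyer's patch. In liver they were 8.91, 4.79 and 7.03, in kidney 3.82, 9.12 and 9.87, in lung 5.23, 29.8 and 8.17, in pancreas 14.2, 18.8 and 19.2, in IEL 4.499, 5.55 and 6.03 and in LPL 21.1, 10.8 and 8.76. Blood and spleen were low, pancreas was high in all 3 libraries, and lung was high in lung Treg 5 alone. Ccne2, cyclin E2, differed from both: it was at 4.11, 19.9 and 19.8 CPM in kidney and at 2.56 to 13.9 CPM in the other Treg libraries, so that kidney Treg 3 and 5 lay above all others and kidney Treg 1 did not.

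Among the genes of mitotic entry, Ccnb2 (chr9:70407692-70421547, minus strand), cyclin B2, was at 9.52, 1.47 and 0.9498 CPM in blood, 8.097, 10.3 and 4.72 in spleen, 20.2, 11.2 and 27.4 in lymph node and 4.203, 4.28 and 13.9 in Peyer's patch Treg. It was at 13.01, 21.8 and 33.3 in liver, 2.9, 12.6 and 19.8 in kidney, 18.6, 74.8 and 67.6 in lung, 31.3, 24.4 and 12.9 in pancreas, 16.1, 15.7 and 20.2 in IEL and 37.9, 23.8 and 29.6 in LPL. The 2 highest libraries were lung Treg 5 and 6, both low in long genes. Ccna2 (chr3:36564865-36572150, minus strand), cyclin A2, which acts in S phase and G2, gave the smallest joint p of the group (F = 7.45, adjusted p = 0.000456, edgeR). Its levels were 3.61, 0.473 and 0.665 CPM in blood, 5.202, 15.7 and 7.78 in spleen, 5.31, 11.3 and 14.03 in lymph node and 5.07, 7.903 and 8.44 in Peyer's patch. In liver it was at 10.1, 27.6 and 17.2, in kidney at 4.16, 18.9 and 10.3, in lung at 19.8, 42.2 and 55.99, in pancreas at 42.5, 29.6 and 17.1, in IEL at 13.7, 14.4 and 17.1 and in LPL at 55.9, 26.8 and 19.8. All 3 blood libraries were below the other 27 Treg libraries. Cdk1, the kinase that cyclins A and B activate, was at 1.204, 0.805 and 0.997 CPM in blood and 28.1, 14.4 and 13.97 in LPL, and kidney Treg 1, at 0.435 CPM, was the only Treg library below blood. Plk1 and Aurka, kinases of mitotic entry and of the centrosome, and Foxm1, the factor that switches on G2 and M genes, had their highest source means in LPL, with 26.4, 14.4 and 11.2 CPM, 24.2, 14.1 and 10.4 CPM and 15.2, 20.02 and 7.49 CPM respectively. Ccnb1, cyclin B1, ran from 0.142 to 18.4 CPM, with its highest mean in lung. For Plk1 and Foxm1 the lowest mean was in lymph node, which holds 2 of the libraries low in long genes.

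Among the genes of the spindle checkpoint, the chromosomal passenger complex and the APC/C, Cdc20 (chr4:118432901-118437352, minus strand), the APC/C activator, was at 12.5, 7.86 and 9.403 CPM in blood, 8.37, 20.1 and 10.9 in spleen, 33.3, 15.9 and 27.7 in lymph node and 8.02, 14.5 and 14.02 in Peyer's patch Treg. It was at 13.1, 20.5 and 15.6 in liver, 5.66, 12.5 and 17.6 in kidney, 10.9, 37.8 and 29.5 in lung, 31.4, 22.9 and 10.1 in pancreas, 15.02, 21.97 and 12.4 in IEL and 36.3, 22.6 and 18.9 in LPL. LPL lay above blood, Peyer's patch and kidney, and overlapped with the other sources. Ube2c (chr2:164769898-164778822, plus strand), the ubiquitin-conjugating enzyme that works with the APC/C, differed between sources in the joint test (F = 5.83, adjusted p = 0.00197, edgeR). Its levels were 1.26, 0.0947 and 0 CPM in blood, 3.44, 7.94 and 2.04 in spleen, 1.14, 3.92 and 1.35 in lymph node and 2.898, 2.54 and 5.54 in Peyer's patch. In liver they were 4.89, 15.4 and 12.2, in kidney 5.75, 4.67 and 6.45, in lung 9.22, 11.5 and 26.6, in pancreas 12.5, 6.38 and 6.61, in IEL 4.78, 6.12 and 13.5 and in LPL 34.1, 17.8 and 10.6. Every tissue library was above every blood and lymph node library, while LPL overlapped with liver, lung, pancreas and IEL. Bub1, a spindle checkpoint kinase, had 0 counts in all 3 blood Treg libraries, which allows up to 0.0483 CPM over the group (3 counts, counting error only), against 5.76 CPM over the other 27, at least 119-fold lower. It was at 20.6, 19.6 and 9.28 CPM in LPL and 7.01, 9.22 and 7.22 in IEL, and also at 0 in kidney Treg 3, lung Treg 6 and lymph node Treg 7. Aurkb, Birc5 and Cdca8 form the chromosomal passenger complex that corrects the attachment of chromosomes. Aurkb was at 4.27, 0.426 and 0.237 CPM in blood and 25.01, 13.3 and 14.01 in LPL, and Birc5 at 5.36, 0.331 and 0.237 and 37.2, 15.1 and 15.6. Cdca8 was at 6.403, 3.55 and 3.99 CPM in blood and 28.1, 24.9 and 25.3 in LPL. For each of the 3 genes all LPL libraries lay above all blood libraries. Bub1b, which acts in the same checkpoint as Bub1, was at 2.68, 5.54 and 1.09 CPM in blood and 41.5, 18.1 and 13.4 in LPL.

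Among the genes of the spindle, the kinetochore and chromosome structure, Top2a (chr11:98992943-99024189, minus strand), the topoisomerase that untangles sister chromatids, was at 11.8, 11.6 and 6.79 CPM in blood, 27.6, 27.4 and 29.7 in spleen, 8.54, 42.1 and 8.699 in lymph node and 19.3, 22.7 and 33.5 in Peyer's patch Treg. It was at 16.1, 41.7 and 54.5 in liver, 16.3, 39.04 and 51.9 in kidney, 43.9, 16.4 and 20.3 in lung, 84.4, 59.2 and 50.01 in pancreas, 46.8, 45.2 and 35.6 in IEL and 111, 66.98 and 58.8 in LPL. Pancreas and LPL lay above all blood, spleen and lymph node libraries. Stmn1 (chr4:134468320-134473843, plus strand), stathmin, a protein that loosens microtubules, gave the smallest joint p of the group (F = 7.65, adjusted p = 0.000389, edgeR). It was at 7.44, 4.496 and 5.41 CPM in blood, 7.69, 8.23 and 9.82 in spleen, 17.6, 14.2 and 17.7 in lymph node and 7.73, 7.03 and 9.44 in Peyer's patch. In liver it was at 10.2, 17.5 and 21.8, in kidney at 5.56, 22.2 and 21.9, in lung at 20.1, 36.8 and 44.6, in pancreas at 28.4, 21.6 and 22.1, in IEL at 10.9, 12.4 and 12.8 and in LPL at 27.6, 12.2 and 18.3. Lung was highest and blood lowest, and IEL stayed below every pancreas library. Mki67, which coats mitotic chromosomes and is the common histological mark of dividing cells, was at 18.3, 4.92 and 1.38 CPM in blood, 24.97, 34.5 and 23.01 in spleen, 49.3, 44.5 and 22.8 in pancreas, 33.6, 34.5 and 23.3 in IEL and 47.1, 53.7 and 33.8 in LPL. In lymph node it was at 0.182, 23.6 and 0.2403 and in lung at 25.5, 5.76 and 0.562, where the libraries low in long genes were the low ones. The motor Kif11, which holds the spindle poles apart, and the microtubule proteins Tpx2 and Nusap1 had their lowest means in blood and their highest in LPL. Tpx2 was at 2.74, 0.899 and 0.237 CPM in blood and 29.8, 18.2 and 23.03 in LPL, and Kif11 at 6.07, 3.31 and 1.57 and 36.5, 22.7 and 22.7. Nusap1 was at 2.46, 0.899 and 0.237 CPM in blood and 21.8, 16.5 and 13.4 in LPL. The kinetochore genes Cenpe and Cenpf, both of great gene length, ran from 0.0454 to 21 and from 0 to 13.7 CPM over the 30 Treg libraries. Both had their highest means in LPL. Kif20a, a motor of late mitosis, ran from 0 to 22.3 CPM, with its lowest mean in lung.

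**Figure D3:**
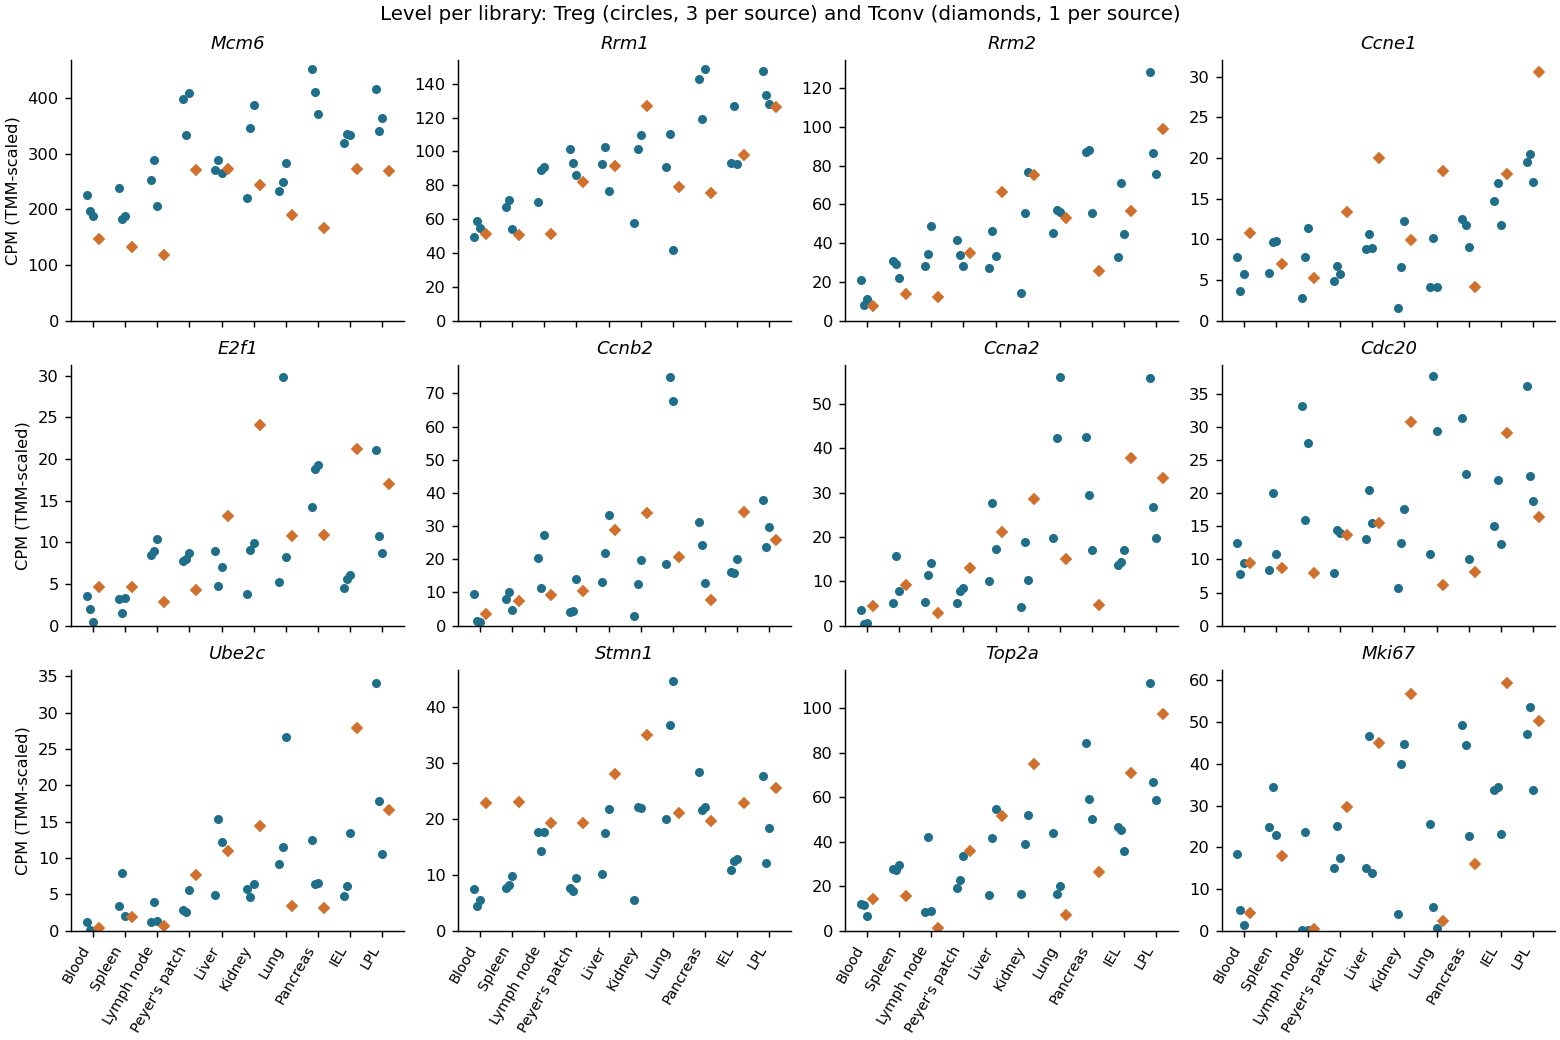
Level (CPM) of 12 members in each library by source, circles for the 3 Treg libraries and diamonds for the 1 Tconv library. The plots of Ccna2 and Ube2c show blood Treg at 3.61 and 1.26 CPM or below, and that of Stmn1 shows Tconv above all 3 Treg libraries in blood and spleen.

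Whether Treg of one source differed from the rest was tested for each source against the mean of the other 9. Blood Treg were lower for 24 members and higher for 0 of 40, against 4.31% of all genes called lower. The members' median log2 fold change was -1.53 (also -1.53 with Bub1 at its bound), and it was 0.01 over all genes tested; all 40 estimates were below 0. The smallest p-values were those of Ccna2 (log2 fold change -3.39, SE 0.62, adjusted p = 0.000983), Cdk1 (-3.16, SE 0.62, 0.00191), Rrm2 (-1.85, SE 0.37, 0.00201), Mcm5 (-0.95, SE 0.20, 0.00336), Ube2c (-4.00, SE 0.84, 0.00344) and Stmn1 (-1.45, SE 0.33, 0.00749), all from edgeR. By role, 5 of 10 replication, 4 of 4 nucleotide supply, 2 of 3 G1/S, 3 of 7 mitotic entry, 5 of 7 checkpoint and 5 of 9 spindle members were lower. The count fell to 7 without blood Treg 4 and to 5 without blood Treg 5, all lower in each case. Blood Treg 4 and 5 had the lower levels of Ccna2, Rrm2 and Ube2c. B cell markers (10 of 10 detected) summed to 308 CPM in blood Treg 2, the highest of all Treg libraries, and their part in these levels was not tested.

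LPL Treg were higher for 23 members and lower for 0, against 13.5% of all genes called higher. The median log2 fold change was 1.25, against 0.06 over all genes, and all 40 estimates were above 0. Those with the smallest p were Mcm7 (0.55, SE 0.10, adjusted p = 0.000253), Rrm2 (1.36, SE 0.27, 0.00077), Mcm3 (0.75, SE 0.16, 0.00168), Ube2c (2.17, SE 0.48, 0.00208), Top2a (1.47, SE 0.33, 0.00237) and Bub1 (3.31, SE 0.78, 0.0038), all from edgeR. LPL Treg 1 decided much of this, since the count fell to 4 without it and to 13 without LPL Treg 2. LPL Treg 1 also had the most RNA of intestinal epithelium markers (13 of 13 detected, 1890 CPM) and of plasma cell markers (7 of 7 detected, 892 CPM). In the other two LPL Treg libraries plasma cell markers summed to 274 and 341 CPM and epithelial markers to 91.4 and 266 CPM. Their part in the result was not tested.

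Pancreas Treg were higher for 6 members and lower for 0, against 3.54% of all genes called higher: Mcm6 (log2 fold change 0.55, SE 0.12, adjusted p = 0.0088), Mcm3 (0.64, SE 0.17, 0.024), Rrm1 (0.67, SE 0.18, 0.0272), E2f1 (1.41, SE 0.37, 0.0297), Mcm2 (0.43, SE 0.12, 0.0362) and Rrm2 (0.97, SE 0.28, 0.0488), all from edgeR. These 6 are replication, nucleotide and E2F genes, and 0 of the 23 mitotic members passed, although all 40 estimates were above 0 with a median of 0.84. This split depended on the tool: limma-voom called 32 of the 40 in pancreas, all higher. The share of all genes that limma-voom called there is not given here. The count was 0 without pancreas Treg 1, 0 without pancreas Treg 5 and 2 without pancreas Treg 6. Acinar markers (11 of 11 detected) reached 125000 CPM in pancreas Treg 6, and their part was not tested.

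Lung Treg were higher for 7 members and lower for 0, against 10.4% of all genes called higher: Stmn1 (log2 fold change 1.42, SE 0.26, adjusted p = 0.000902), Ccnb2 (2.03, SE 0.43, 0.00308), Ccna2 (1.81, SE 0.39, 0.00358), Birc5 (1.85, SE 0.51, 0.0183), Ube2c (1.75, SE 0.50, 0.0213), Pcna (0.55, SE 0.16, 0.0251) and E2f1 (1.13, SE 0.38, 0.0485), all from edgeR. Without the libraries low in long genes, which leaves lung Treg 1 alone against the other sources, 3 members were called, 1 higher and 2 lower, with E2f1 at -0.32, and with the length trend as a covariate 0 were called. Without lung Treg 6, 2 were called. Over the 40 members, the rank correlation of gene length with the deviation of the level from its mean over libraries was -0.473 in lung Treg 5 and -0.563 in lung Treg 6, against 0.008 in lung Treg 1. It was -0.41 and -0.347 in lymph node Treg 10 and 7, against 0.278 in lymph node Treg 6. Ccnb2, short by this gene length, stood at 18.6, 74.8 and 67.6 CPM in the 3 lung libraries and Mki67, long by it, at 25.5, 5.76 and 0.562.

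**Figure D4:**
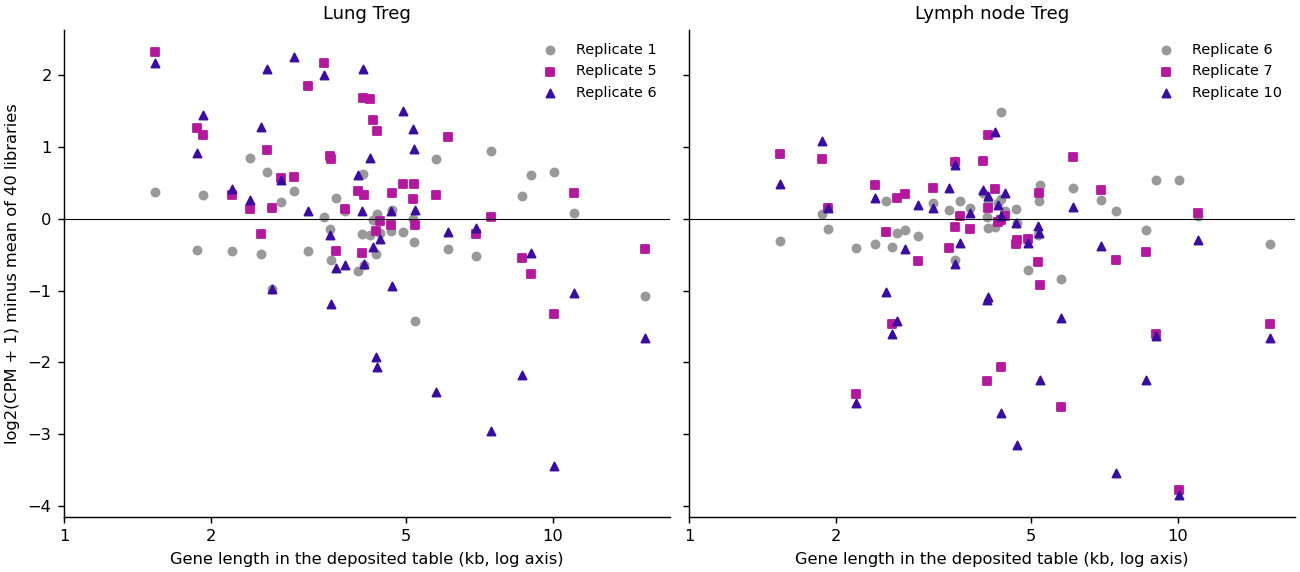
Deviation of each member's level from its mean over 40 libraries (log2 of CPM + 1) against gene length in kb (log axis), for lung Treg (left) and lymph node Treg (right); each point is 1 of the 40 members in 1 library. Many long members lie low in lung Treg 5 and 6 and lymph node Treg 7 and 10; over the 40 members the rank correlation was 0.008 and 0.278 in lung Treg 1 and lymph node Treg 6, drawn in grey.

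The remaining sources had few or no members called. Spleen Treg were lower for 3 MCM members (1.47% of all genes called lower), Mcm6 (log2 fold change -0.59, SE 0.14, adjusted p = 0.019, edgeR), Mcm7 (-0.41, SE 0.11, 0.0369) and Mcm3 (-0.70, SE 0.19, 0.0393). The spleen count is small and ran from 0, without spleen Treg 3 or 4, to 6, without kidney Treg 1 or lung Treg 1. In kidney Treg, Ccne2 was higher (1.21, SE 0.29, adjusted p = 0.00855, edgeR; 7.64% of all genes called higher) and Mcm7 lower (-0.45, SE 0.11, adjusted p = 0.00865, edgeR; 1.68% called lower), and both were lost without kidney Treg 3 or 5. Lymph node, Peyer's patch, liver and IEL had 0 members called by edgeR, with 6, 6, 1 and 3 members at an unadjusted p below 0.05. DESeq2 called 3, 1, 0 and 0 in these sources and limma-voom 6, 3, 1 and 11, the 11 in IEL being 10 higher and 1 lower. Of all genes, edgeR called 12.8% in lymph node, 1.74% in Peyer's patch, 3.05% in liver and 14.5% in IEL. The shares called by the other 2 tools are not given here. Without lymph node Treg 6, the lymph node library that is not low in long genes, 5 members were called there, 1 higher and 4 lower. Without the libraries low in long genes, which leaves lymph node Treg 6 alone, 0 were called in lymph node.

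Treg of the 6 tissues were next set against Treg of the 3 lymphoid sources. This fit had a mean for each source, so its SE and p hold the spread of libraries within sources. They do not measure the spread between tissues, and the calls are about these sources alone. Of the 40 members 28 were higher and 0 lower, against 11.9% of all genes called higher, and all 40 estimates were above 0. The median log2 fold change was 1.15 over the members and 0.03 over all genes tested. Replication members moved least, with 7 of 10 higher and a median of 0.44, and nucleotide supply had 2 of 4 with a median of 0.63. G1/S had 2 of 3 with a median of 1.13, mitotic entry 5 of 7 with 1.48, checkpoint and APC/C 6 of 7 with 1.60, and spindle and chromosome 6 of 9 with 1.34. Whether the roles differed from each other was not tested. Mcm6 had the smallest p (log2 fold change 0.58, SE 0.09, adjusted p = 4.58e-05, edgeR), with a lowest, median and highest level of 220.3, 335 and 452 CPM in 18 tissue libraries and of 182, 206 and 289 CPM in 9 lymphoid ones. Ccna2 was higher by 2.06 (SE 0.35, adjusted p = 0.000129, edgeR), with 4.16, 19.4 and 56.0 CPM against 0.473, 5.31 and 15.7. Ube2c was higher by 2.71 (SE 0.46, adjusted p = 0.000153, edgeR), with 4.67, 9.90 and 34.1 CPM against 0, 1.35 and 7.94. Each of these overlapped between the 2 sides, as did all 40 members. Of all genes tested, 0.0782% had every tissue library above every lymphoid one. Rrm2 (1.26, SE 0.22, adjusted p = 0.000205), Cdk1 (1.83, SE 0.35, 0.00047) and Mcm3 (0.63, SE 0.12, 0.000558) followed, all from edgeR. The 12 members that did not pass were Gins2, Mcm7, Pcna, Tyms, Tk1, Ccne1, Ccnb1, Foxm1, Cdc20, Cenpe, Kif20a and Mki67, with estimates from 0.17 to 1.27. Mki67 was one of them, at 1.18 (SE 0.60, adjusted p = 0.174, edgeR).

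The count of called members differed with the lymphoid source used as reference. With blood alone as reference 24 members were higher, with spleen alone 9 and with lymph node alone 2, and 0 were lower in each. A single reference holds 3 Treg libraries instead of 9, and 2 of those in lymph node are low in long genes. The shares of all genes called with these references are not given here. Against lymph node alone the estimates of Cdc45, Mcm2 and Mcm5 turned to -0.50, -0.07 and -0.31, and against spleen alone that of Cenpf to -0.73, none of them called. Without the 7 libraries low in long genes 19 members were higher and 0 lower, and with the length trend as a covariate 29 and 0. With counts summed to 1 library per source, 6 against 3, 0 members were called by edgeR. There the source is the replicate and the spread between sources is the error.

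**Figure D5:**
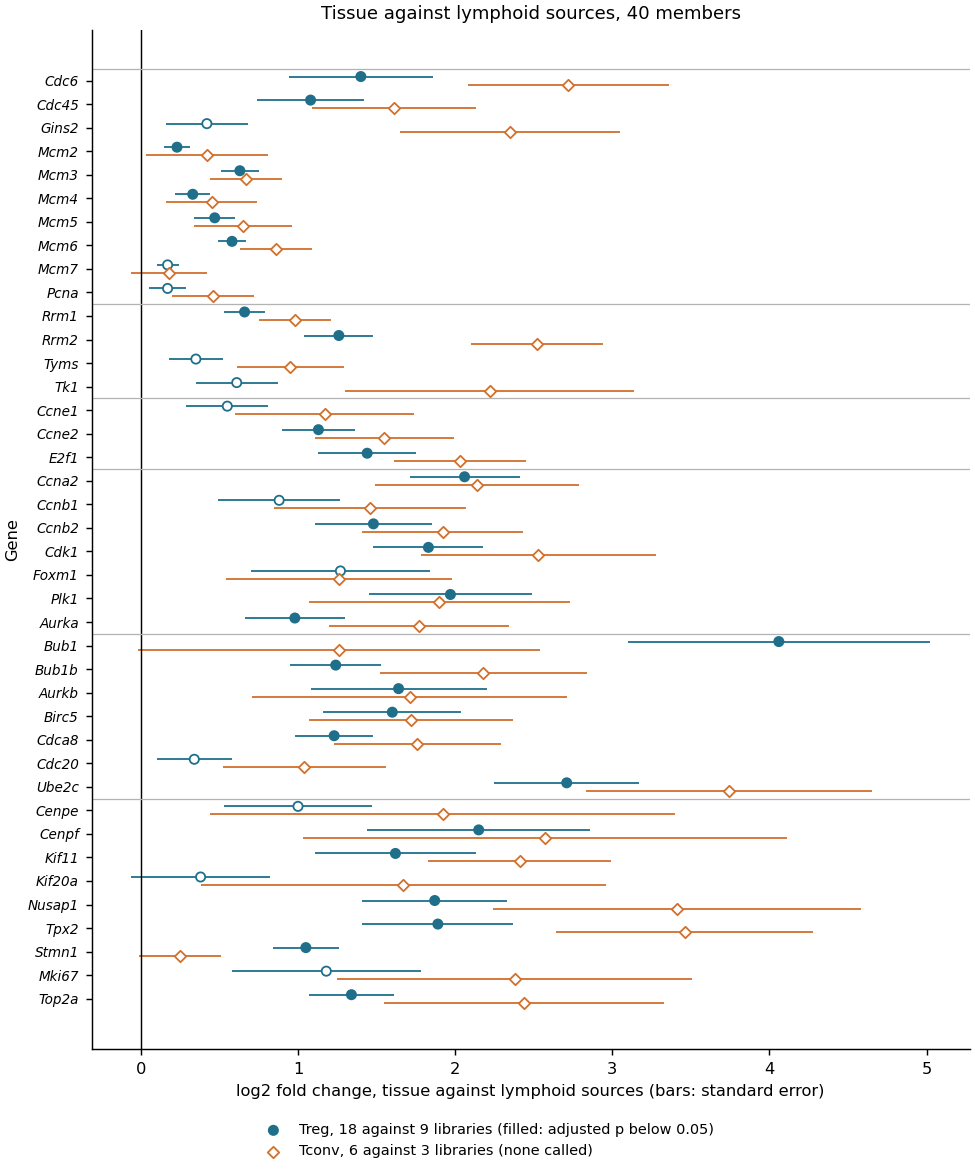
Log2 fold change of tissue against lymphoid sources for each member with its standard error, in Treg (circles, 18 against 9 libraries, filled where adjusted p is below 0.05) and in Tconv (diamonds, 6 against 3 libraries). All 40 Treg estimates and all 40 Tconv estimates lie above 0, and in Tconv 0 were called. The Treg bars hold the spread of libraries within sources and the Tconv bars the spread between sources.

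In Tconv the same sources were split in a fit of another kind, with a mean for each side and the sources as replicates. Its error holds the spread between sources, so its counts of called members do not compare with those of Treg. The median log2 fold change was 1.74 over the members and 0.01 over all genes, with all 40 estimates above 0. With 6 libraries against 3, edgeR called 0 of the 40 members and 0% of the 14453 genes tested, while 25 members (and 2119 genes) had an unadjusted p below 0.05. DESeq2 called 19 members and limma-voom 13, all higher, and their shares of all genes are not given here. Without the libraries low in long genes, which leaves 5 libraries against 2, edgeR called 0 as well. In 13 members all 6 tissue libraries lay above all 3 lymphoid ones, against 3.94% of genes tested: Cdc6, Cdc45, Gins2, Mcm3, Mcm6, Rrm1, Rrm2, Ccne2, E2f1, Cdk1, Ube2c, Kif11 and Tpx2. Rrm2 Tconv levels were 7.62 CPM in blood, 13.6 in spleen and 12.02 in lymph node, against 66.5 in liver, 74.98 in kidney, 53.1 in lung, 25.6 in pancreas, 56.4 in IEL and 99.1 in LPL. Pancreas was the lowest tissue for Rrm2 in Tconv and one of the highest in Treg. The early response genes also varied between these libraries, with a summed CPM of 888 in blood, 1240 in spleen, 1870 in lymph node, 1520 in liver and 1340 in lung Tconv. They summed to 8210 in IEL, 10600 in pancreas, 18200 in LPL and 23200 in kidney. Plasma cell markers reached 1940 CPM in LPL Tconv, acinar markers 8380 CPM in pancreas Tconv and intestinal epithelium markers 1070 CPM in IEL Tconv. The part of these lists in the Tconv difference was not tested.

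Treg and Tconv were then compared over all 40 libraries with the source as a factor. Of the 40 members 1 was called higher and 1 lower in Treg, against 8.17% and 6.73% of all genes, and the members' median log2 fold change was 0.02. Without the libraries low in long genes 2 were called as well. Mcm6 was higher in Treg (0.53, SE 0.09, adjusted p = 9.84e-05, edgeR), with a lowest, median and highest level of 182, 288 and 452 CPM in 30 Treg libraries and of 118, 217 and 273 CPM in 10 Tconv libraries. Stmn1 was lower in Treg (-0.80, SE 0.20, adjusted p = 0.0035, edgeR), with 4.50, 13.5 and 44.6 CPM in Treg and 19.2, 22.9 and 34.9 CPM in Tconv. The Tconv level of Stmn1 lay above all 3 Treg libraries in 7 of 10 sources and stood at 22.8 CPM in blood, 22.9 in spleen and 25.5 in LPL. In Treg it ran from the lowest values in blood to the highest in lung.

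Source by source the single Tconv library took different sides. In pancreas it lay below all 3 Treg libraries for 36 members and above them for 0, against 23.7% of all genes below. In lymph node it lay below for 28 and above for 2 (20.2% of genes below), and there the Tconv library is 1 of those low in long genes, as it is in lung. In spleen it was below for 18 and above for 6 (23.3% and 29.6% of genes), and in lung below for 14 and above for 7 (19.8% and 21.2%). Kidney turned the other way, with Tconv above all 3 Treg libraries for 27 members and below for 0 (24.9% of genes above), as did IEL with 25 above and 3 below (30.7% and 32.0% of genes), liver with 19 and 1 (25.1% and 30.3%) and Peyer's patch with 18 and 8 (28.3% and 22.0%). In blood the counts were 10 above and 10 below (29.9% and 28.6%), and in LPL 6 and 7 (28.0% and 28.7%). For Top2a the Tconv level was 26.4 CPM in pancreas against 84.4, 59.2 and 50.01 in Treg, and 74.98 in kidney against 16.3, 39.04 and 51.9. With 1 Tconv library per source these are positions of single libraries, and no test was made within a source. In the Peyer's patch the Tconv library was above Treg for mitotic members such as Ccna2, Plk1 and Mki67 and below them for Mcm2, Mcm3, Mcm5 and Mcm6. In that library the germinal centre B cell markers (6 of 6 detected) summed to 84.9 CPM, the highest of the 10 Tconv libraries (median 32.7 CPM), against 15.9 to 101 CPM over all Treg libraries; their part was not tested. The IEL Tconv library had the most RNA of markers of CD8 and of gamma-delta T cells (3 of 5 found in the table), 265 CPM against at most 62.2 CPM in Treg, and its part was not tested.

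Whether the tissue difference itself differed between Treg and Tconv was tested in 1 fit of all 40 libraries. Of the 40 members 1 was called, lower in Treg, against 0.649% of the 22976 genes tested called lower. This was Tk1 (Treg minus Tconv -2.69, SE 0.59, adjusted p = 0.018, edgeR). With 1 Tconv library per source, this SE and p hold the spread of Treg replicates only and no spread of Tconv. Tk1 levels in Tconv were 1.299 CPM in blood, 4.9 in spleen and 0.1103 in lymph node (2 counts), and 7.15, 9.98, 13.8, 3.52, 10.9 and 11.9 in liver, kidney, lung, pancreas, IEL and LPL. In Treg they were 5.64, 1.94 and 2.23 in blood, below every spleen and lymph node library, 12.7, 20.9 and 12.3 in spleen and 7.13, 10.1 and 11.01 in lymph node. Without the lymph node libraries of both cell types Tk1 was at -1.05 (adjusted p = 0.696, edgeR) and 0 members were called, so the call rests on lymph node. With limma-voom it was at -2.46 (adjusted p = 0.087).

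Other genes of the same processes were read from lists. Of 38 further replication genes 13 were higher and 1 lower in tissue Treg, against 11.9% of all genes higher and 9.98% lower, with a median log2 fold change of 0.56 (0.03 over all genes). Among the smallest p-values were those of Lig1, the ligase that joins Okazaki fragments (1.25, SE 0.18, adjusted p = 2.25e-05, edgeR), Clspn, a replication checkpoint mediator (2.49, SE 0.40, 7.23e-05), and Dtl, an adaptor of the ubiquitin ligase that clears licensing factors (1.80, SE 0.29, 8.15e-05). The exception was Gins4 (-0.23, SE 0.08, adjusted p = 0.0479, edgeR). Of 48 further mitosis genes 26 were higher and none lower (0), the median being 0.96. These were led by Racgap1 (1.23, SE 0.13, adjusted p = 7.47e-07, edgeR), Cenpa, the centromeric histone (0.87, SE 0.13, 5.31e-05), Hmgb2 (0.81, SE 0.13, 7.6e-05) and Kif23, the motor of the central spindle (2.95, SE 0.50, 0.000164). Blood Treg were lower for 9 of the 38 and 19 of the 48, and higher for 0 of either, against 4.31% of all genes lower. LPL Treg were higher for 12 of 38 and 18 of 48, and lower for 1 of each, against 13.5% of all genes higher.

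The regulators of G1 moved both ways. Of 9 of them (cyclins, kinases, Cdc25a and the factors Myc and E2f3) 1 was higher and 3 lower in tissue Treg (median -0.08), against 11.9% and 9.98% of all genes: Myc (-0.66, SE 0.11, adjusted p = 0.000118, edgeR), cyclin D2 (Ccnd2, -0.46, SE 0.08, 0.000239) and Cdk4 (-0.49, SE 0.12, 0.00348) were lower, and Ccnd1 was higher (2.52, SE 0.88, 0.0414) at 2.17 against 0.278 CPM. Ccnd2 was at 581 CPM (mean) in tissue and 806 CPM in lymphoid Treg. Of 6 CDK inhibitors tested (of 7 listed) 2 were higher and 0 lower. These were Cdkn1a, which encodes p21 (5.40, SE 0.52, adjusted p = 2.42e-07, edgeR), at a mean of 110.3 CPM in tissue and 1.53 CPM in lymphoid Treg, and Cdkn2c, which encodes p18 (0.86, SE 0.22, 0.00571). Cdkn1a is also a stress-induced gene, and the early response list above was higher in several of the same sources; its part was not tested. Of 18 genes of the pocket protein, DREAM and quiescence list 7 were higher and none lower (0), the median being 0.24. Tob2, an antiproliferative factor (1.97, SE 0.28, adjusted p = 2.06e-05, edgeR), Rbl2, which encodes the pocket protein p130 (0.61, SE 0.12, 0.000782), Rb1 (0.55, SE 0.11, 0.000973) and Lin54, a DREAM subunit that binds the CHR (1.24, SE 0.26, 0.0011), had the smallest p. Tissue Treg thus held more RNA of replication and mitosis genes, and also of Cdkn1a, Rbl2 and Rb1, which are known to restrain the cycle.

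Between Treg and Tconv 6 of the 9 G1 regulators differed, 2 higher and 4 lower in Treg, against 8.17% and 6.73% of all genes. Ccnd3 (-0.61, SE 0.09, adjusted p = 1.1e-05, edgeR) and Ccnd2 (-0.39, SE 0.09, 0.0039) were lower in Treg, and Myc (0.77, SE 0.12, 1.63e-05) and Cdk6 (0.72, SE 0.15, 0.000745) were higher. Of 6 CDK inhibitors tested 1 was higher and 1 lower in Treg. The higher was Cdkn1c, which encodes the inhibitor p57 (2.37, SE 0.44, adjusted p = 0.000185, edgeR), at a mean of 6.87 CPM against 0.97 CPM. Of the 18 pocket protein, DREAM and quiescence genes 3 were higher and 0 lower. Of the other replication genes 3 were higher and 2 lower in Treg, and of the other mitosis genes 2 were higher and 0 lower, shares that are near or below those of all genes.

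Over the 30 Treg libraries, genes outside the list whose log2(CPM + 1) was among the most correlated with the members' mean were Pclaf (Pearson r = 0.895), Pbk (0.893), Ncaph (0.863), Ncapd2 (0.863), Stil (0.847), Adap1 (0.846) and Aspm (0.842). These correlations are descriptions; the libraries share their sources. Pclaf, a PCNA-binding protein, ran from 0.522 to 33.1 CPM and Pbk, a mitotic kinase, from 0 to 11.6 CPM. Ncaph and Ncapd2 are subunits of condensin, which folds mitotic chromosomes, and Stil and Aspm act at centrioles and spindle poles. Pclaf, Stil and Adap1, the last at 8.45 to 148 CPM, are on none of the lists used here.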

How the data were processed

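Libraries of 3′ mRNA (QuantSeq) were made from 2000 sorted cells each. Per the submitters' processing notes, quality control used FastQC and MultiQC, and trimming used Trim Galore, before alignment by STAR (build mm10) and gene counting by featureCounts; versions, the strand setting and the annotation release are not given in the sources used here. The authors deposited raw counts of 55421 genes in 40 libraries, with a column of gene length in bases, which is another unit and was used only for the length trend. Reads of overlapping or antisense genes may be shared.

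Here counts were fitted with edgeR 4.0.16 (robust quasi-likelihood F test, TMM, filterByExpr, R 4.3.3), with Benjamini-Hochberg adjustment over all genes tested and a threshold of 0.05. Treg were fitted with 1 mean per source, and Treg against Tconv with source as a factor over all 40 libraries. Tconv tissues were fitted against lymphoid sources over 9 libraries, with a mean for each side and the source as the replicate. Alternatives were DESeq2 1.42.0, limma-voom 3.58.1 with quality weights, other scaling and filters, other references, a replicate block and each replicate left out. Libraries with a length trend below -0.2 were left out, or the trend taken as a covariate, in alternatives chosen after seeing the data, as was leaving out lymph node in the test of Treg against Tconv tissue differences. Levels are CPM with TMM totals, with a pseudocount of 1 on log scales, and counting intervals and floors cover counting error only. In each role group the text leads with the member of highest mean CPM and the member of smallest p in the joint test; up to 6 members per comparison, with E2f1 in lung added because it changed sign, and up to 4 genes per further list are named by smallest p; 1 gene that these rules would name is not reported here. The members and lists were chosen with earlier results of these data known.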

Additional observations from a re-analysis of the deposited data

Results flagged for a closer look

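The tissue difference of Tk1, thymidine kinase, differed between Treg and Tconv by a test of the difference itself, with a value of -2.69 (Treg minus Tconv, log2, SE 0.59, adjusted p = 0.018, edgeR; 1 of the 40 members, against 0.649% of 22976 genes tested called lower). The SE of 0.59 and its p hold the spread of Treg replicates only, as each source has 1 Tconv library. The Treg difference was 0.61 (SE 0.26, adjusted p = 0.0883, edgeR) and the Tconv difference 2.22 (SE 0.92, adjusted p = 0.305, edgeR), each from a fit of its own. The Tconv fit had a mean for each side and not for each source, so these values do not subtract to -2.69. The lymph node Tconv library held 2 counts of Tk1 and is 1 of those low in long genes. Without lymph node the value was -1.05 (adjusted p = 0.696, edgeR), and over the other alternatives it ran from -2.78 (without blood Treg 4) to -2.46 (adjusted p from 0.00112 with DESeq2 to 0.269 with a replicate block).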

How the results depend on the processing

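Counts of members called moved by over 1.5 times as follows. With DESeq2 they were 6 in spleen (3 with edgeR), 3 in lymph node, 1 in Peyer's patch, 19 for Tconv and 2 for the difference between Treg and Tconv. With limma-voom they were 40 in the joint test, 9 in spleen, 6 in lymph node, 3 in Peyer's patch, 1 in liver, 32 in pancreas, 11 in IEL, 4 for Treg against Tconv, 13 for Tconv and 0 for the difference. With no filter on low counts, 1 was called in kidney and 1 for Tconv. Without the libraries low in long genes there were 7 in spleen, 1 in Peyer's patch, 3 in lung, 10 in pancreas and 1 in IEL, and with the length trend as a covariate 6 in spleen and 0 in lung. Without lymph node 0 were called for the difference. The tissue Treg count was 9 against spleen and 2 against lymph node, where fewer libraries remain. It was 0 with counts summed per source, where fewer libraries remain and the spread between sources is the error. With the replicate number as a block (the pairing of equal numbers) there were 1 in spleen, 1 in kidney, 2 in lung, 1 in pancreas, 12 in LPL and 11 for tissue Treg. The 1 in pancreas is none of the 6 called there without the block, and the 1 called for the difference between Treg and Tconv under the block is not Tk1. Over 58 pairs of same-numbered libraries the deviations from the source mean had a median r of -0.015, with 6 pairs over 0.1. The other 347 pairs had a median of 0.003, with 49 over 0.1. Whether equal numbers share an animal cannot be told from this, because a shared animal need not shift whole libraries together. The shares of all genes called in these alternatives are not given here. Where no cause is named, the cause was not tested.

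Leaving out 1 library at a time gave 20 to 30 in the joint test, 5 to 24 in blood, 0 to 6 in spleen, 0 to 5 in lymph node, 0 to 2 in Peyer's patch, 0 to 0 in liver and IEL, 0 to 2 in kidney, 2 to 8 in lung, 0 to 9 in pancreas, 4 to 26 in LPL, 20 to 29 for tissue Treg, 2 to 3 for Treg against Tconv, 0 to 3 for Tconv (3 without pancreas Tconv 5) and 1 to 1 for the difference, where the dispersion trend of the full fit was kept and Treg libraries alone were left out. In spleen the count was 1 without blood Treg 2 or 4, kidney Treg 3, LPL Treg 2, liver Treg 1, pancreas Treg 1 or 5 or spleen Treg 2, and 5 without lymph node Treg 6. In lymph node it was 1 without kidney Treg 5, lung Treg 1 or lung Treg 6, and in Peyer's patch 2 without kidney Treg 1. The values that changed sign were E2f1 in lung without the libraries low in long genes (-0.32, from lung Treg 1 alone), Cdc45 (-0.50), Mcm2 (-0.07) and Mcm5 (-0.31) against lymph node alone, and Cenpf (-0.73) against spleen alone. The 1 Tconv library per source limits every statement on Tconv, and members such as Bub1 had 0 counts in some libraries.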
